A study of Mus musculus with 96 samples.

Results

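The genes described here are 41 members of the interferon response and of class I antigen presentation, followed through mouse heart ventricle RNA. They were taken by name from the deposited table of 55376 genes. All 41 were found in it, and all 41 passed the filter on low counts that left 15629 genes for testing. The mice carried the inducible, cardiomyocyte-specific Bmal1 knockout that the labels call iCSBmal1 KO. Bmal1, listed under the gene symbol Arntl, is an activating factor of the core circadian clock, and tamoxifen is the drug that switches on an inducible Cre recombinase. The series asks how this factor bears on sex differences of the heart's daily gene expression. The 4 groups were vehicle females (Veh_F), vehicle males (Veh_M), tamoxifen females (Tam_F) and tamoxifen males (Tam_M), with 24 libraries each. Each group held 2 libraries at each of 12 times from ct 18 to ct 62, spaced by 4 h, where ct is read as circadian time in hours. All 96 libraries carry the same genotype label, vehicle libraries included. A tamoxifen difference therefore holds any effect of the drug itself, which cannot be told apart from that of the recombination. The sources used here do not give the driver of the Cre, the strain, the ages or the dose. No label says whether each library is a separate animal, so the p-values rest on the spread between libraries, which may be technical.

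Interferons are secreted proteins released when cells sense foreign or misplaced nucleic acid. Type I interferons signal through their receptor and JAK kinases to a complex that holds STAT2 and IRF9 and binds the interferon-stimulated response element (ISRE), whereas interferon gamma acts mainly at the gamma-activated site (GAS). The induced genes include antiviral effectors, large GTPases that attack the vacuoles of intracellular microbes, and the immunoproteasome and transporter that load peptides onto class I molecules. Heart tissue transcribes many of them at a low level without infection, in cardiomyocytes as well as in endothelial, stromal and immune cells. In bulk RNA, fewer cells of a type and less RNA per cell cannot be told apart.

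The stretches below come from promoters of members named in the results, chosen among those that held a match to the ISRE. They are RefSeq sequences on GRCm38.p6, 5′ to 3′ on the strand of the gene, with capitals for a match to the ISRE (GAAA, any 2 bases, GAAA), to the GAS (TTCNNNGAA) or, where they touch, to both, on either strand.
Ifit1, chr19:34640769-34640829, plus strand: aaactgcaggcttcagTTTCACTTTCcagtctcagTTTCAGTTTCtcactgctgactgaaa
Isg15, chr4:156200868-156200928, minus strand: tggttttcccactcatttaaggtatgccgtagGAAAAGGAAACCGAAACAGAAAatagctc
Oas1a, chr5:120907526-120907635, minus strand: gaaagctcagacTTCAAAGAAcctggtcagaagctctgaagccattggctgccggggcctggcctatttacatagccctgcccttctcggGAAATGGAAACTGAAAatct
Ifit1bl1, chr19:34602028-34602088, minus strand: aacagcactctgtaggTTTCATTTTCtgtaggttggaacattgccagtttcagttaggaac
Bst2, chr8:71537562-71537622, minus strand: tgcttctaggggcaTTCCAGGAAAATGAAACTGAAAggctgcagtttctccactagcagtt
Irgm2, chr11:58214887-58214947, plus strand: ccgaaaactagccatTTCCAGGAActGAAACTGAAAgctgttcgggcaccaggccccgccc
Igtp, chr11:58199496-58199555, plus strand: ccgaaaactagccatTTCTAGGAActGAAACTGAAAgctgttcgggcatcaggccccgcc
B2m, chr2:122147537-122147577, plus strand: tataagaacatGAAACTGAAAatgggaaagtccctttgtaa
Ifi205, chr1:174031855-174031915, minus strand: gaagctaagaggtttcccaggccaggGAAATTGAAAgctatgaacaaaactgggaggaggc

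Of the 41 members, 32 had a RefSeq promoter of 300 bases (250 before the start to 50 after it). The ISRE letters stood in 19 of these 32 genes (59.4%), against 1079 of 27025 genes (3.99%) over the promoter table. The GAS letters stood in 7 of 32 (21.9%) against 9.55% of all genes. The clock's E-box, CACGTG, stood in 1 of 32, Psmb10 (3.12%), against 8.09% of all genes. The ISRE and GAS letters can share bases, as in Bst2, and a match describes the letters only. Irf9, Irf7, Oasl2, Ifi44, Xaf1, Lgals3bp, Psmb9, Tap1, H2-K1 and H2-D1 held none of these letters. Ifit2 and Psmb8 held the GAS letters without the ISRE. The Irgm2 and Igtp stretches agreed at 58 of 60 bases. Members without an entry in the promoter table were Zbp1, Usp18, Oas2, Mx1, Mx2, Ifi27, Parp14, Iigp1 and Tap2.

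Library totals ran from 8944955 to 20596194 counts. Arntl, the targeted gene, ran from 0.992 to 56.3 CPM (counts scaled to the library total) in vehicle females and from 2.85 to 28.3 in tamoxifen females, and from 1.27 to 48.3 CPM in vehicle males and from 1.31 to 31.7 in tamoxifen males. The Arntl medians were 13.8 CPM in vehicle and 16.2 in tamoxifen females, and 14.2 and 13.2 CPM in males, so the median was higher with tamoxifen in females and lower in males, with ranges that overlapped. A count per gene also takes in undeleted exons and other cell types, so it checks the treatment label only in part. A library labelled as a tamoxifen female, Tam_F_ct54_559, held 0.272 CPM of Xist where the vehicle females held at least 222 CPM. In 10 of the 24 vehicle males the share of counts in the annotation's TEC class (transcribed regions awaiting experimental support) was higher than in any library of the other groups, whose highest share was 0.1115%. Atrial Myl7 lay above 20 CPM in 13 libraries, 7 of them vehicle females. The numbers in the library titles run in separate series for vehicle males, for vehicle females and for tamoxifen libraries of both sexes, so a batch that follows them cannot be told apart from the vehicle sex comparison or from the tamoxifen effects. Results that rest on the 10 vehicle males are given with and without them, and calls lost without the 13 libraries high in Myl7 are named where the mean levels are compared. All CPM below are scaled by TMM, edgeR's normalization, and a gene is called where its adjusted p is below 0.05.

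Class I genes were the most abundant members per length. B2m, the light chain shared by class I molecules (chromosome 2, 122147686 to 122153083, GENCODE M21 on GRCm38), had a median of 339 CPM per kb of exon over the 96 libraries, and the heavy chains H2-D1 and H2-K1 had 92.4 and 73.1 CPM per kb. The next levels were 29.1 CPM per kb for Bst2, a membrane tether of budding virions, and 22.9 for Psmb10, a catalytic subunit of the immunoproteasome. The lowest were 0.365 CPM per kb for Mx1, an antiviral GTPase, 0.59 for the nucleic acid sensor Zbp1 and 0.908 for Mx2, which the annotation calls a polymorphic pseudogene. The interferons themselves were close to absent from these counts. None of the 13 listed ligand genes passed the filter, 8 of them had 0 counts in all 96 libraries, and Ifng reached 27 counts in 21 libraries, with 3 counts for Ifnb1 and 5 for Ifna2.

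Tamoxifen females had higher levels than tamoxifen males for 10 of the 41 members, and males had a higher level of 1. The 10 are the sensor Ifih1, the signalling and feedback genes Irf9, Irf7 and Usp18, and the effectors Ifit1, Oas1a, Isg15, Ifi44, Ifit3 and Oasl2. Of all 15629 tested genes 7.68% were called in this comparison, 4.08% higher in females and 3.60% lower, against 26.8% of the members. The female minus male value was positive for 39 of the 41 members, with a median of 0.17 log2 against −0.0025 over all tested genes. Members rose and fell together between libraries, so this count and the single calls are not separate observations. In Tam_F_ct58_595 and in Tam_M_ct18_574 alone, 39 of 41 members lay above the group mean. The mean deviation over the members had an SD between libraries of 0.19 log2 in tamoxifen females and 0.24 in tamoxifen males. Along the title numbers of these groups the time course starts over at a later number, and 7 of the 24 females and 12 of the 24 males carry the numbers after it.

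Ifit1 encodes a protein that binds viral RNA caps. It held 9.28 to 24 CPM in the tamoxifen females (median 14.7) and 5.66 to 30.4 CPM in the tamoxifen males (median 9.51). The groups overlapped, but 23 of the 24 female libraries lay above the male median. The female level was higher by 0.39 ± 0.11 log2 (SE, edgeR adjusted p = 0.0144), at 11 of the 12 times.

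Oas1a, an oligoadenylate synthetase of the antiviral response, held 2.83 to 6.57 CPM in females (median 4.48) and 2.11 to 5.38 CPM in males (median 3.45). Only 2 of the 24 males lay above the female median, and the difference was 0.37 ± 0.09 log2 (edgeR adjusted p = 0.00214). Isg15, a ubiquitin-like protein attached to newly made proteins, held 3.79 to 11.9 CPM in females (median 6.97) and 2.93 to 8.92 in males (median 5.10). Its difference was 0.35 ± 0.11 log2 (edgeR adjusted p = 0.0300). Ifi44, a restrictor of viral replication, ranged from 7.52 to 14.1 CPM in females (median 10.2) and from 4.75 to 13.6 CPM in males (median 7.94), a difference of 0.34 ± 0.08 log2 (edgeR adjusted p = 0.00440).

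Oasl2, an oligoadenylate synthetase-like protein, had medians of 21.2 CPM in females (15.4 to 29.6) and 16.9 CPM in males (10.8 to 26.1). Ifit3, a partner of Ifit1, had medians of 19.2 CPM in females (13.2 to 33.6) and 15.5 CPM in males (9.71 to 32.4). For both, the 2 sexes overlapped over most of their range while the bulk of the females lay higher, with differences of 0.33 ± 0.08 and 0.33 ± 0.10 log2 (edgeR adjusted p = 0.00251 and 0.0176). Ifih1, the RNA sensor also known as MDA5, showed one of the smaller but more even shifts. It held 15.4 to 22.6 CPM in females (median 18.5) and 12.7 to 19.3 CPM in males (median 15.5), with 23 of 24 females above the male median and a difference of 0.23 ± 0.05 log2 (edgeR adjusted p = 0.00197).

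The signalling genes had the same sign. Irf9, the DNA-binding subunit of the ISRE-binding complex, had medians of 28.0 CPM in females (22.8 to 44.3) and 24.1 in males (17.7 to 32.9), a difference of 0.23 ± 0.07 log2 (edgeR adjusted p = 0.0204). Irf7, the factor that amplifies interferon alpha transcription, had medians of 15.1 CPM (10.3 to 20.3) and 12.5 CPM (8.38 to 18.5), a difference of 0.24 ± 0.07 log2 (edgeR adjusted p = 0.0313). Usp18 removes ISG15 from proteins and dampens receptor signalling. Its medians were 6.02 CPM (4.25 to 9.15) and 5.07 CPM (3.0 to 6.75), a difference of 0.28 ± 0.08 log2 (edgeR adjusted p = 0.0221). The fourth gene of this role, Stat2, had a difference of 0.15 ± 0.07 log2 that was not called (edgeR adjusted p = 0.24).

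**Figure D1:**
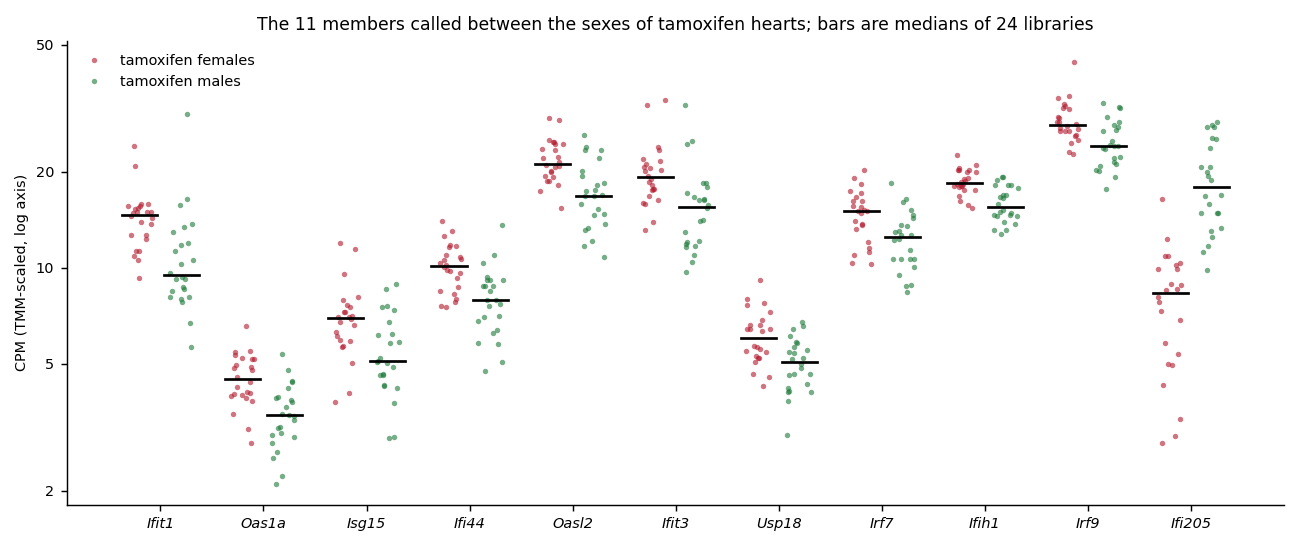
Level of the 11 members called between the sexes of tamoxifen hearts, in TMM-scaled CPM on a log axis, 1 point per library (24 tamoxifen females in red, 24 tamoxifen males in green) with a bar at the median. The other 10 members have the higher median in females with overlapping ranges, and Ifi205, at the right, has the higher median in males (17.9 against 8.34 CPM).

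The remaining roles had positive values that did not pass the test. All 7 interferon-inducible GTPases had positive values, from 0.12 to 0.28 log2, and 0 were called, with 3 at an unadjusted p below 0.05 by edgeR and 0 by DESeq2 at its adjusted threshold. In the immunoproteasome, peptide transport and class I group 7 of 8 values were positive, from −0.04 log2 for Psmb10 to 0.19 for Psmb9, and 0 were called, with 0 at an unadjusted p below 0.05. Among other genes of the pathway, 5 of 34 interferon-stimulated genes were higher in females, led by Oas1g (0.55 ± 0.13 log2, edgeR adjusted p = 0.00324) and Ifitm1 (0.41 ± 0.10, edgeR adjusted p = 0.00518), and 0 were lower. Of 12 transcription factors and negative regulators 2 were higher, namely Socs1, a JAK inhibitor (0.54 ± 0.13 log2, edgeR adjusted p = 0.00290), and Irf8 (0.29 ± 0.08 log2, edgeR adjusted p = 0.0150). Myd88 was the 1 gene called of 14 sensors and adaptors (0.14 ± 0.04 log2, edgeR adjusted p = 0.0181). None of the 9 receptors and kinases, the 15 other class I genes, the 9 class II genes or the 8 other GTPases was called by edgeR, with 1, 4, 0 and 3 of them at an unadjusted p below 0.05 and 0 called by DESeq2. Oas1a and Oas1g are close copies between which counting can split reads.

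Fibroblast markers moved in the same direction between the sexes of tamoxifen hearts. Of 6 markers 4 were called higher in females, Lum most of all (0.78 ± 0.08 log2, edgeR adjusted p = 2.298e-12). The summed level of the 6 was 873 to 1520 CPM in females (median 1180) and 805 to 1510 CPM in males (median 904). Macrophage markers had 0 of 9 called, with median sums of 332 and 349 CPM. Endothelial markers had 1 of 7 called, lower in females (Cdh5, −0.24 ± 0.07 log2, edgeR adjusted p = 0.0121), with sums of 704 to 1060 and 760 to 1200 CPM. The part of these cells in the interferon genes was not tested. The 10 higher calls of this comparison were also the result without Tam_F_ct54_559 (10 higher, 1 lower) and with library size alone or DESeq2. With a term for the later run of tamoxifen title numbers 11 were higher and 1 lower, 10 of them among the same 11 genes. Without the 10 vehicle males high in TEC counts, which enter the fit but not this comparison, 15 were higher and 1 lower, the 11 included. The 2 days of the time course gave fewer calls each, 1 (Ifi205) in the first 24 h and 6 in the second, with member medians of 0.10 and 0.27 log2. Leaving out 1 time in turn gave 6 to 17 calls, with 6 without ct 38, 7 without ct 22 or ct 58, and 17 without ct 34.

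Ifi205 had the largest sex difference of the 41 members, in both treatments, and in the opposite direction to the group above. Ifi205 (chromosome 1, 174011998 to 174031810, minus strand) belongs to the p200 family of interferon-inducible DNA-binding proteins. Vehicle females held 2.88 to 23.6 CPM (median 7.60) and vehicle males 11.5 to 43.4 CPM (median 18.8). Tamoxifen females held 2.83 to 16.4 CPM (median 8.34) and tamoxifen males 9.86 to 28.7 CPM (median 17.9). In tamoxifen hearts all 24 males lay above the female median and none of the 24 females reached the male median. In vehicle hearts all 24 males lay above the female median and 4 of the 24 females lay above the male median. The female minus male value was −1.15 ± 0.13 log2 in vehicle hearts (edgeR adjusted p = 1.69e-12) and −1.25 ± 0.13 log2 in tamoxifen hearts (edgeR adjusted p = 6.333e-13). Both calls held in each of the 24 other settings tried. The test of the interaction did not call a difference between the treatments (−0.10 ± 0.18 log2, edgeR adjusted p = 0.65). The p200 genes lie in a cluster of similar sequences between which counting can split reads. The family's Ifi203 and Ifi204 had sex differences in tamoxifen hearts of 0.13 ± 0.08 and −0.0042 ± 0.077 log2 (edgeR adjusted p = 0.33 and 0.99), and were lower in vehicle females (−0.34 ± 0.08 and −0.43 ± 0.08 log2, edgeR adjusted p = 5.423e-05 and 8.666e-07).

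In vehicle hearts 19 of the 41 members were called between the sexes, 4 higher and 15 lower in females, where 68.3% of all tested genes were called (31.8% higher, 36.5% lower). The lower calls include 7 of the 8 immunoproteasome, peptide transport and class I genes, all but Tap1. Psmb9, a catalytic subunit of the immunoproteasome, held 6.39 to 14.1 CPM in vehicle females (median 9.69) and 7.57 to 28.5 CPM in vehicle males (median 14.7). Psmb8, its neighbour in the class II region, held 11.7 to 25 CPM (median 17) and 12.6 to 51.2 CPM (median 25.2). In both genes the groups shared their lower range, and the highest males lay above every female library. The differences were −0.55 ± 0.11 log2 for Psmb9 and −0.52 ± 0.10 for Psmb8 (edgeR adjusted p = 4.658e-06 and 2.772e-06). Antiviral effectors had 7 of 18 lower and 2 higher, the higher being Ifit1bl1 (0.68 ± 0.09 log2, edgeR adjusted p = 6.909e-10) and Ifi44 (0.23 ± 0.08, edgeR adjusted p = 0.0108). Of the GTPases Iigp1 and Irgm2 were higher in females (0.31 ± 0.14 and 0.34 ± 0.14 log2, edgeR adjusted p = 0.0397 and 0.0229). The call of Iigp1 was lost in 11 of 24 other settings, that of Ifi44 in 7 and that of Irgm2 in 5, for all 3 genes without ct 22, with library size alone, in the first 24 h alone and without the 13 libraries high in Myl7. Without those 13 libraries 15 of 41 members were called, 1 higher and 14 lower, where 63.9% of all genes were, and Isg15 was also no longer called. Beyond the members, 22 of 34 interferon-stimulated genes, 7 of 12 regulators, 8 of 15 class I genes and 5 of 9 class II genes were lower in females, and 2, 1, 5 and 0 of them higher. H2-K1 and H2-D1 are close copies between which counting can split reads.

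Most of these calls rested on the 10 vehicle males with a high TEC share. In 38 of 41 members the median of those 10 libraries was above that of the other 14, with a median ratio of 1.5. The same count was not made over all tested genes, so it does not set the members apart from other genes. Psmb9 held 16 to 28.5 CPM in the 10 (median 19.4) and 7.57 to 17.8 CPM in the other 14 (median 9.97). H2-K1 held 246 to 471 CPM (median 302) against 153 to 317 CPM (median 192). Bst2 held 35.7 to 55.2 CPM (median 45.4) against 19.3 to 38 CPM (median 23.9). Of the 10 libraries, 7 lay above all of the other 14 for Psmb9, 8 for Bst2 and 4 for H2-K1, for which the sets overlapped more. The exceptions, with the higher median in the other 14, were Ifi205, Lgals3bp and Ifit1bl1, the last with 1.38 to 4.86 CPM against 3.56 to 6.92. The totals of the 10 libraries were 8944955 to 14088409 counts and those of the other 14 were 10274073 to 15588379.

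Without those 10 libraries the vehicle comparison had 16 calls, 13 higher in females and 3 lower, with 7 of the 16 among the earlier 19 and 46.7% of all genes called. The member median moved from −0.08 to 0.14 log2. Ifi205 remained lower (−1.22 ± 0.16 log2, edgeR adjusted p = 3.263e-09), as did Ifi27, a mitochondrial and nuclear envelope protein (−0.31 ± 0.08, edgeR adjusted p = 0.00107), and Psmb10 (−0.32 ± 0.07, edgeR adjusted p = 0.000270). The highest values among the 13 were those of Iigp1 (0.47 ± 0.18), Ifi44 (0.46 ± 0.10), Irgm2 (0.45 ± 0.18), Ifit1bl1 (0.41 ± 0.09) and Oasl2 (0.40 ± 0.09 log2). Ifi44, Oasl2, Irf9 and Ifih1 were then called higher in females in vehicle hearts as they were in tamoxifen hearts. These 4 genes were named after their values were seen. In each, the 10 left-out males had the higher median, 1.32 to 1.61 times that of the other 14. Leaving them out therefore raises the female minus male values by itself, and it leaves no vehicle male at ct 30 or ct 34. The 2 comparisons share no library, but these calls are not a test of the tamoxifen result. Endothelial markers were lower in females in 7 of 7 with all libraries, erythroid markers in 4 of 4 and B cell and plasma markers in 5 of 5, as were 3 of 3 monocyte, 3 of 3 neutrophil and 5 of 9 macrophage markers (3 of 9 higher), with endothelial sums of 833 to 1250 CPM in females and 886 to 1890 CPM in males. Neutrophil markers reached 62.6 CPM in 1 vehicle male and at most 6.12 CPM in vehicle females. Without the 10 vehicle males lower in females were 3 of 7 endothelial, 4 of 4 erythroid, 4 of 5 B cell and plasma, 2 of 3 monocyte, 3 of 3 neutrophil and 4 of 9 macrophage markers. The part of these cells in the result was not tested.

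In males 28 of the 41 members differed with tamoxifen, 27 lower and 1 higher, where 70.0% of all tested genes were called (32.2% higher, 37.8% lower). The member median was −0.23 log2 against −0.05 over all genes. The calls covered 14 of 18 antiviral effectors, 7 of 8 genes of class I presentation, 3 of 4 signalling genes, 2 of 4 sensors and 2 of 7 GTPases. Psmb10 held 36.1 to 74.5 CPM in vehicle males (median 52.3) and 28.1 to 62 CPM in tamoxifen males (median 38.1). Ifi27 held 23.9 to 61.4 CPM (median 36.9) and 22.9 to 36.4 CPM (median 28.2). Bst2 held 19.3 to 55.2 CPM (median 33.2) and 17.2 to 34 CPM (median 22.9). In the 3 genes the groups overlapped, and the highest vehicle males lay above every tamoxifen male. The changes were −0.49 ± 0.06 log2 for Psmb10, −0.49 ± 0.08 for Ifi27 and −0.47 ± 0.08 for Bst2 (edgeR adjusted p = 3.343e-12, 3.724e-08 and 1.072e-07). Mx1 had the lowest value at −0.69 ± 0.19 log2 (edgeR adjusted p = 0.000781) at medians of 1.78 and 1.05 CPM. Ifit1bl1 was the member that rose, by 0.48 ± 0.09 log2 (edgeR adjusted p = 4.081e-06).

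The same 10 vehicle males carried most of this comparison. Without them 4 of 41 members were called, all lower and all among the 28, with 42.2% of all genes called and a member median of −0.04 log2. They were Psmb10 (−0.43 ± 0.07 log2, edgeR adjusted p = 1.897e-06), Ifi27 (−0.24 ± 0.08, edgeR adjusted p = 0.0137), Bst2 (−0.22 ± 0.08, edgeR adjusted p = 0.0260) and Irf7 (−0.21 ± 0.09, edgeR adjusted p = 0.0440). Ddx58, the RNA sensor RIG-I, turned from −0.19 to 0.05 log2, Stat2 from −0.19 to 0.11, Oasl2 from −0.22 to 0.05, Gbp3 from −0.23 to 0.07 and Gbp7 from −0.25 to 0.07, none of them called. Of the pathway's other interferon-stimulated genes 27 of 34 were called with all libraries, 25 of them lower, and of the receptors and kinases 7 of 9, 2 higher and 5 lower. The receptor chain Ifngr2 rose by 0.54 ± 0.07 log2 (edgeR adjusted p = 1.281e-10), and by 0.27 ± 0.05 without the 10 libraries (edgeR adjusted p = 2.391e-06). Among cell type markers, lower with tamoxifen were 7 of 7 endothelial, 5 of 5 B cell and plasma, 3 of 3 monocyte, 3 of 3 neutrophil, 5 of 9 macrophage and 2 of 4 erythroid genes, and of 6 cardiomyocyte genes 3 were higher and 3 lower. Without the 10 vehicle males the lower counts were 1 of 7, 3 of 5, 2 of 3, 3 of 3, 5 of 9 and 0 of 4 in that order, with 1 cardiomyocyte gene higher and 3 lower. The part of these cells in the result was not tested.

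**Figure D2:**
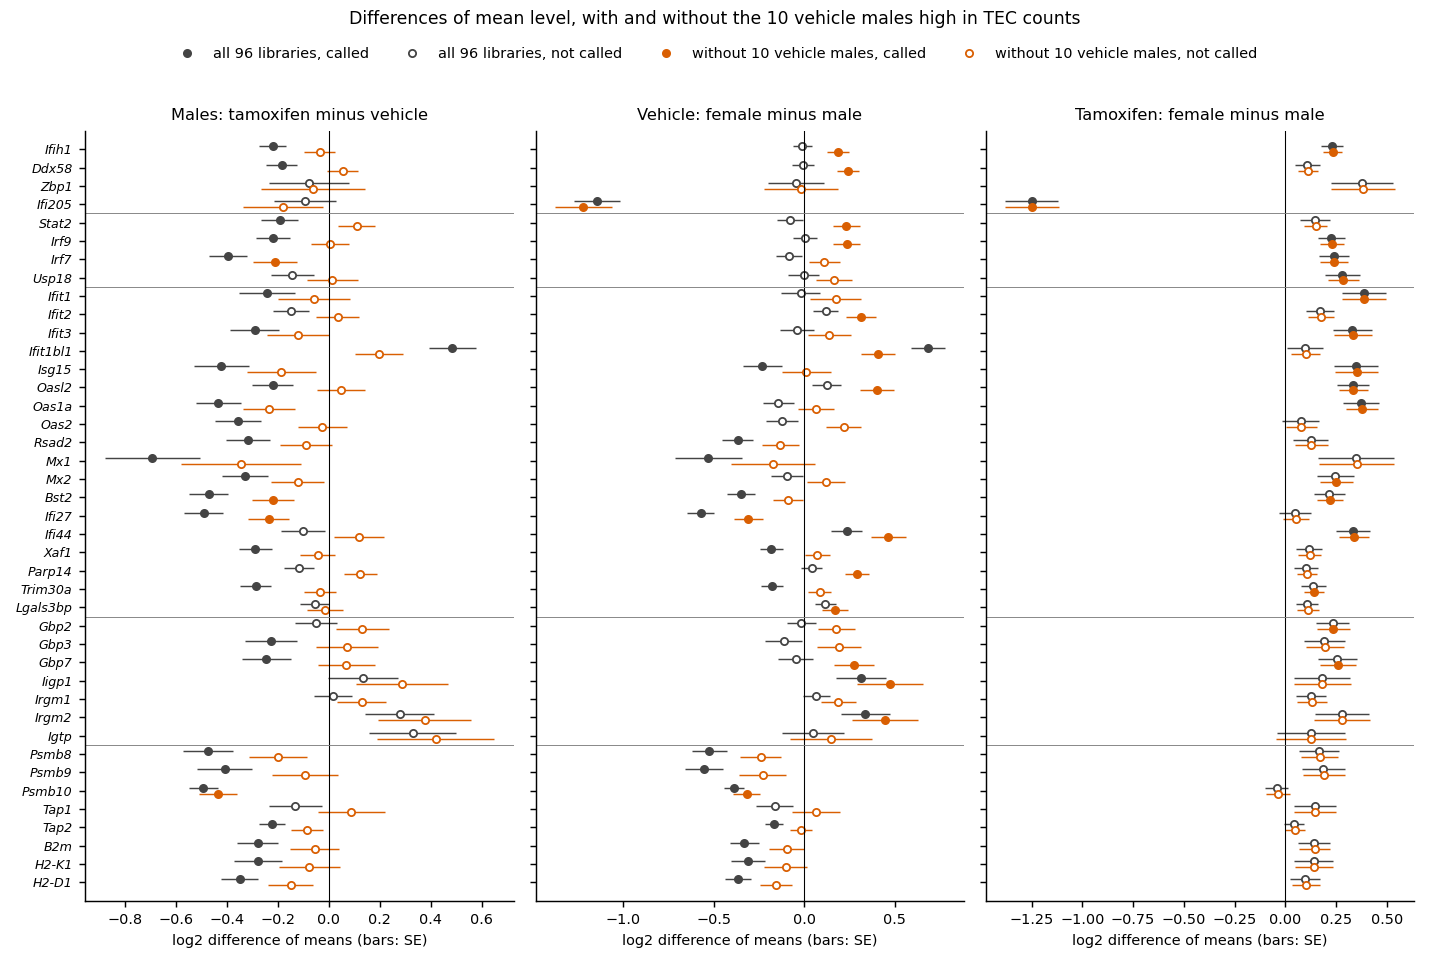
Log2 difference of the mean level of each of the 41 members, with SE bars, for tamoxifen minus vehicle in males (left), female minus male in vehicle hearts (middle) and female minus male in tamoxifen hearts (right). Grey is the fit to all 96 libraries and orange the fit without the 10 vehicle males high in TEC counts, filled where called. The member median moves from −0.23 to −0.04 in the left panel and from −0.08 to 0.14 in the middle panel, and the right panel, which uses none of those libraries in its contrast, stays at 0.17 to 0.18.

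In females few members were called with tamoxifen. Of the 41 members 2 were called, against 27.5% of all tested genes (15.2% higher, 12.3% lower). Psmb9 held 6.39 to 14.1 CPM in vehicle females (median 9.69) and 7.07 to 19.6 CPM in tamoxifen females (median 11.6). It was higher with tamoxifen by 0.33 ± 0.11 log2 (edgeR adjusted p = 0.0133). Psmb10 held 31.9 to 56.9 CPM (median 39.0) and 29 to 45.9 CPM (median 36.2). It fell by 0.15 log2 (SE 0.06, edgeR adjusted p = 0.0407). For Psmb9, 6 of the 24 tamoxifen females lay above every vehicle female. For Psmb10, which fell, the lowest tamoxifen female (29 CPM) lay below the lowest vehicle female (31.9 CPM), and the ranges overlapped. Psmb9 overlaps the peptide transporter gene Tap1 by 212 exonic bases on the other strand, and the strand setting of the counting is not given. The other 39 members lay between −0.20 and 0.40 log2 and were not called. That range passes the 0.33 log2 of the called Psmb9, so a missing call does not show an absence of change. The first 24 h gave 0 calls and the second 24 h 1, a term for the later title numbers gave 1, and leaving out 1 time in turn gave 1 to 5, with 5 without ct 22 and 1 without ct 18, 26, 30, 38, 46 or 62. Without ct 18, 46 or 62, or without the 13 libraries high in Myl7, the call of Psmb9 was lost, and without ct 22, 26, 30, 34, 38 or 42 that of Psmb10.

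Among other genes of the pathway, tamoxifen females had 4 of 9 receptors and kinases called (1 higher, 3 lower), 3 of 8 GTPases (1 higher, 2 lower), 3 of 34 interferon-stimulated genes (2 higher, 1 lower), 2 of 14 sensors and adaptors (both lower), 2 of 15 class I genes (both higher), 1 of 12 regulators (higher) and 0 of 9 class II genes (0 by edgeR and by DESeq2, 0 at an unadjusted p below 0.05). The kinase Jak1 was lower with tamoxifen by 0.49 log2 (−0.49 ± 0.06, edgeR adjusted p = 2.01e-11) and the receptor chain Il10rb by 0.26 log2 (−0.26 ± 0.04, edgeR adjusted p = 1.604e-07). The GTPase Gbp6 had −0.71 ± 0.11 log2 (edgeR adjusted p = 1.409e-07). Parp9 and Dtx3l, partners in protein modification, were higher by 0.26 ± 0.05 and 0.22 ± 0.04 log2 (edgeR adjusted p = 1.21e-05 and 3.426e-05). Jak1 was not called in males (0.06 ± 0.06 log2, edgeR adjusted p = 0.33), and the interaction was −0.55 ± 0.08 log2 (edgeR adjusted p = 1.753e-07), or −0.38 ± 0.07 without the 10 vehicle males high in TEC counts (edgeR adjusted p = 0.000146). In males Gbp6 had a value of the same sign as in females (−0.55 ± 0.11 log2, edgeR adjusted p = 9.329e-06). Macrophage markers were called lower in tamoxifen females in 6 of 9, with median sums of 376 CPM in vehicle and 332 CPM in tamoxifen females. Fibroblast markers were called higher in 4 of 6 (median sums of 963 and 1180 CPM), and endothelial markers lower in 2 of 7 and atrial markers in 2 of 3. The part of these cells in the result was not tested.

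The effect of tamoxifen differed between the sexes for 23 of the 41 members by the interaction, 22 with the higher change in females and 1, Ifit1bl1, with the lower. The share over all tested genes was 52.3% (27.0% and 25.4%). Class I presentation had 7 of 8 genes called and a median of 0.46 log2, antiviral effectors had 12 of 18, signalling genes 3 of 4, sensors 1 of 4 and GTPases 0 of 7 (3 at an unadjusted p below 0.05 by edgeR). Without the 10 vehicle males 6 members were called, where 28.6% of all genes were. These were Ifi27 (0.36 ± 0.10 log2, edgeR adjusted p = 0.00602), Psmb8 (0.41 ± 0.15, edgeR adjusted p = 0.0289), Psmb9 (0.42 ± 0.16, edgeR adjusted p = 0.0451), Psmb10 (0.28 ± 0.10, edgeR adjusted p = 0.0210), Bst2 (0.31 ± 0.10, edgeR adjusted p = 0.0210) and Ifit1bl1 (−0.31 ± 0.12, edgeR adjusted p = 0.0415). The catalytic immunoproteasome subunits make up 3 of the 6, a grouping made after the calls were seen. These 6 are a smaller share of the 41 members than the 28.6% of all genes. This interaction shares its groups with the 4 comparisons above, so it is not a further observation of them.

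Rhythms were tested as a 24 h cosine in each group. Vehicle females had 7 of 41 members called rhythmic (34.5% of all genes), vehicle males 26 (55.2%), tamoxifen females 3 (17.1%) and tamoxifen males 1 (8.03%). Without the 10 vehicle males high in TEC counts 3 of 41 were called in vehicle males, Ifi205, Oas2 and Psmb10, where 18.6% of all genes were. Those 10 libraries lie unevenly over the day, with 5 of them at ct 26, 30 and 34 and 5 at ct 38, 42, 54, 58 and 62. On the 24 h scale of the test, ct 54 repeats ct 30 and ct 58 repeats ct 34. Both vehicle males at ct 30 and both at ct 34 are among the 10, with 1 each at ct 54 and ct 58. None are at ct 18, 22, 46 or 50. Of the 26 fitted peaks in vehicle males, those of the 8 class I presentation genes lay between ct 7.97 and ct 9.74. On the 24 h scale ct 30 and ct 34 enclose that span. Of these 8 genes Psmb10 alone was still called without the 10 libraries.

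Ifi205 had the widest rhythm of the members, in vehicle females. Its 2 libraries per time averaged 15 CPM at ct 18, fell to 5.06 at ct 30, reached 23.4 at ct 38, fell again to 3.87 at ct 50 and stood at 15 at ct 62. The low and high phases recurred in both days, and the 2 libraries of ct 38 agreed at 23.2 and 23.6 CPM while those of ct 18 lay apart at 23 and 6.96. The fitted amplitude, the distance from mean to peak, was 1.07 ± 0.13 log2 with a peak at ct 15 and a peak-to-trough ratio of 4.40 (edgeR adjusted p = 1.964e-09). In vehicle males the amplitude was 0.46 ± 0.12 log2 with a peak at ct 17 (edgeR adjusted p = 0.00392). In tamoxifen hearts the amplitudes were 0.41 ± 0.13 in females and 0.41 ± 0.12 in males with peaks at ct 16.4 and 15.7, and neither was called (edgeR adjusted p = 0.0623 and 0.0532). The difference of rhythms between vehicle and tamoxifen was not called in females (0.70 ± 0.19 log2, edgeR adjusted p = 0.11) or in males (0.16 ± 0.17, edgeR adjusted p = 0.79).

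Ifit1bl1, a gene of the Ifit cluster (chromosome 19, 34592891 to 34601956, minus strand), was the member called rhythmic in all 4 groups, and its phase was not the same in them. In vehicle females the time means were highest at ct 30 (9.26 CPM) and ct 54 (9.09) and lowest at ct 42 (4.63) and ct 62 (5.14). In tamoxifen females they were highest at ct 30 (9.15) and ct 58 (9.01) and lowest at ct 18 (4.72) and ct 42 (5.0). In tamoxifen males they were highest at ct 34 (8.91) and ct 58 (7.99) and lowest at ct 18 (4.02) and ct 50 (4.02). In each of these groups the highs recurred about a day apart. In vehicle males the means were highest at ct 22 (5.87) and ct 46 (5.86) and lowest at ct 34 (2.76) and ct 62 (2.47), so that ct 34 was a low in vehicle males and the high in tamoxifen males. Both vehicle males of ct 34 (3.55 and 1.97 CPM) are among the 10 high in TEC counts, as is Veh_M_ct62_35 (1.38 CPM). Ifit1bl1 was low in that set, with a median of 3.19 against 5.47 CPM in the other 14. The low at ct 34 thus has no vehicle male outside the 10.

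The fitted Ifit1bl1 peaks were ct 3.69 for vehicle females, 0.152 for vehicle males, 7.21 for tamoxifen females and 10.4 for tamoxifen males, with amplitudes of 0.41 ± 0.09, 0.43 ± 0.10, 0.40 ± 0.09 and 0.48 ± 0.09 log2. The rhythm differed with tamoxifen in males (difference vector 0.89 ± 0.13 log2, edgeR adjusted p = 7.821e-05), and still did without the 10 vehicle males (0.67 log2, edgeR adjusted p = 0.00722). In females the difference was 0.36 ± 0.13 log2 and was not called (edgeR adjusted p = 0.24). The rhythm of vehicle males alone was not called without the 10 libraries. The neighbouring Ifit1bl2 is a close copy between which and Ifit1bl1 counting can split reads, and it was called rhythmic in vehicle females, vehicle males and tamoxifen females. In males 5 further members had a called difference of rhythms (Oas2, Bst2, Rsad2, Irf7 and Xaf1, 20.7% of all genes being called), of which 0 were called without the 10 vehicle males. Leaving out 1 time in turn gave 2 to 16 calls, with 16 without ct 42, 2 without ct 46 and 3 without ct 22, 30, 38 or 50, while the share over all genes ran from 8.65% to 28.2%. In females 0 of 41 were called by edgeR (0.237% of all genes), with 8 at an unadjusted p below 0.05 and 1 called by DESeq2.

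**Figure D3:**
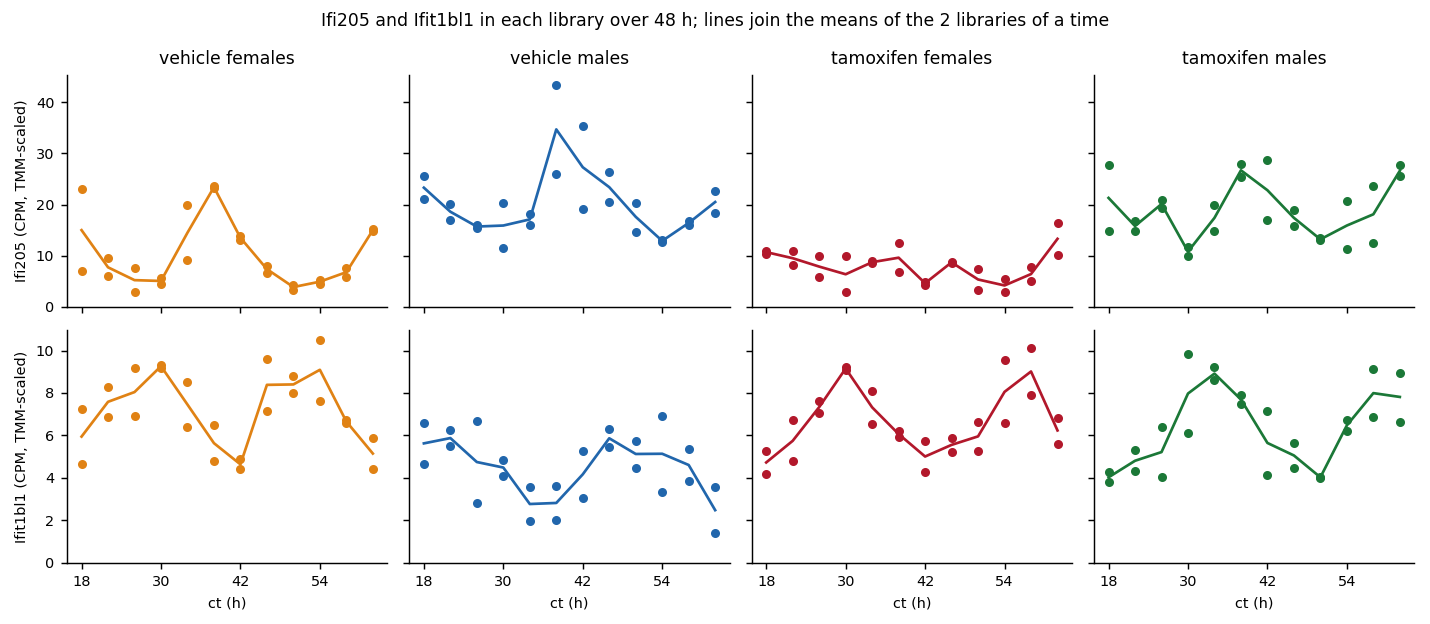
Level of Ifi205 (top) and Ifit1bl1 (bottom) in TMM-scaled CPM against ct in hours, in the 4 groups, with a point per library and a line through the mean of the 2 libraries of each time. Ifi205 rises to 23.4 CPM at ct 38 in vehicle females, and Ifit1bl1 peaks at ct 30 in both groups of females, at ct 34 in tamoxifen males and at ct 22 in vehicle males.

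For each library the mean over the 41 members of its log2 deviation from the group mean was taken. Over the 48 pairs with the same group and time the 2 values differed by a median of 0.22 log2, from 0.0033 to 0.684, and by more than 0.5 in 8 pairs. Veh_F_ct22_408 stood at 0.415 with 38 of 41 members above its group's mean, and its pair Veh_F_ct22_409 at −0.27 with 11. Tam_F_ct58_595 stood at 0.48 with 39 above and its pair Tam_F_ct58_565 at −0.13 with 12. In males Tam_M_ct34_526 stood at 0.45 and its pair Tam_M_ct34_582 at 0.36, and Veh_M_ct34_14 at 0.61 and its pair at 0.079. These 4 libraries were chosen for holding the most highest values of their groups, and in 2 of the 4 cases the pair of the same time lay on the other side of the group mean. Tam_M_ct34_526 and the pair Tam_F_ct58_565 are among the 5 tamoxifen libraries under 6 CPM of Arntl. All 5 carry ct 34, 38, 54 or 58. The lowest Arntl of vehicle hearts was also at such times, 0.992 CPM in Veh_F_ct34_423 and 1.27 CPM in Veh_M_ct38_16. A low value there is therefore not particular to tamoxifen.

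**Figure D4:**
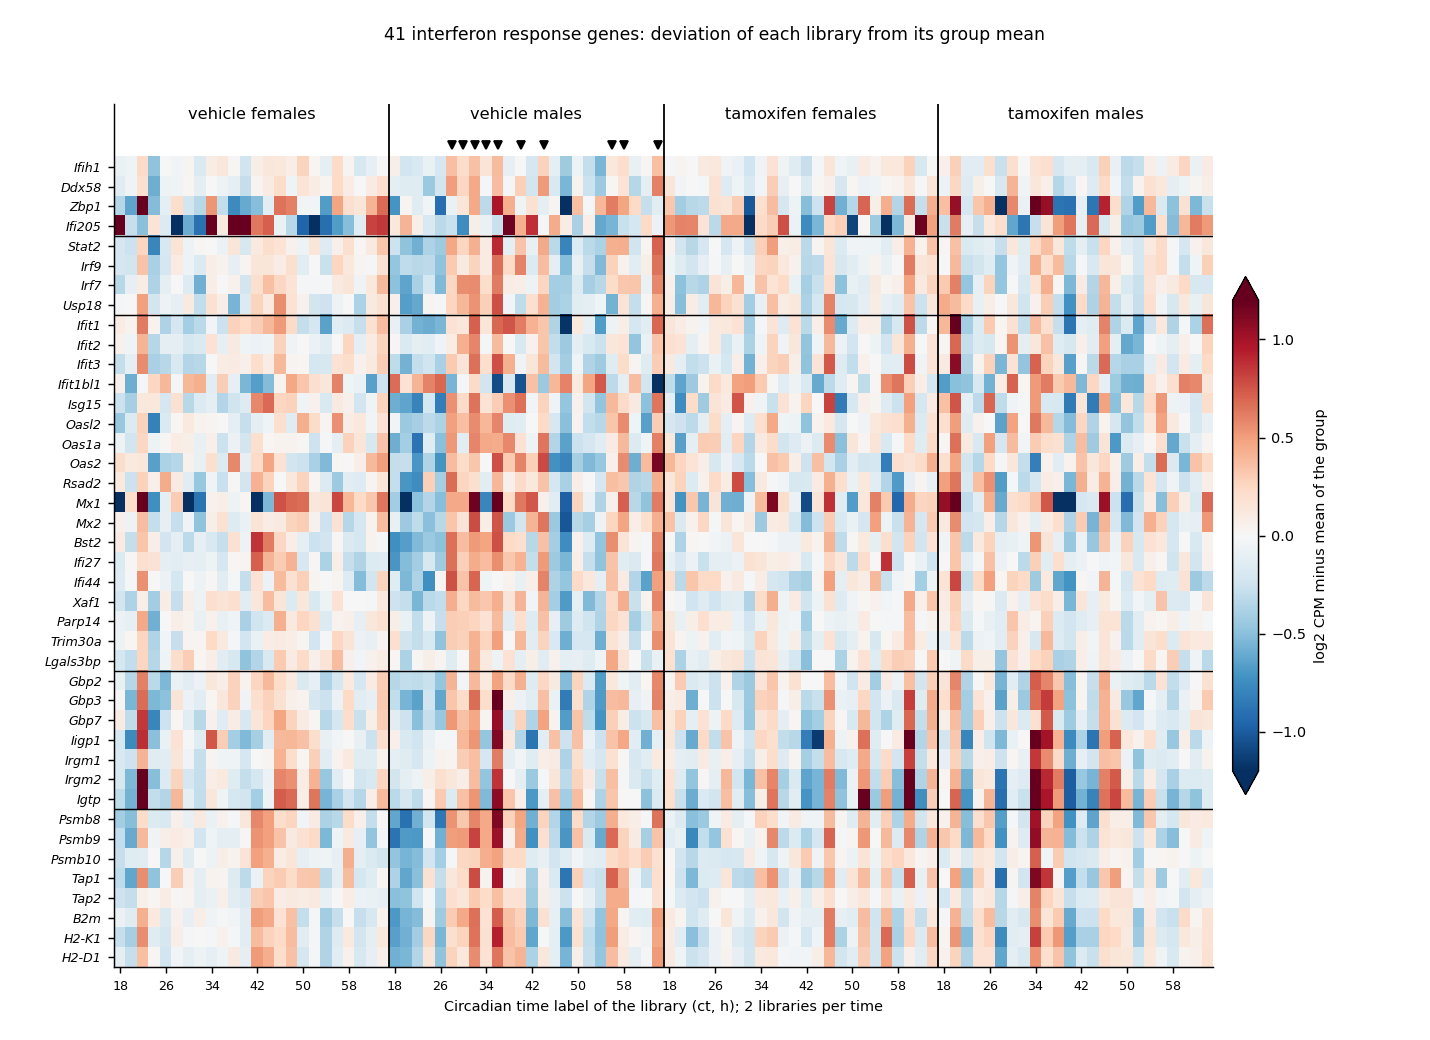
Deviation of each library (columns, ordered by group and ct, 2 libraries per time) from the mean of its group for the 41 members (rows, ordered by role), as log2 CPM from blue (low) to red (high), with colours saturating at the ends of the scale. Triangles mark the 10 vehicle males high in TEC counts, whose columns are mostly red, with mean deviations from 0.079 to 0.61. Single columns in other groups stand out in the GTPase block.

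Of the immunity-related GTPases, 3 of 4 were among the members with the widest spread. Igtp, Irgm2 and Iigp1 load onto vacuoles of intracellular parasites. Igtp had a residual SD of 0.567 log2, at the 95.7 percentile of all tested genes, Iigp1 0.473 (89.4) and Irgm2 0.462 (88.4), while Irgm1 had 0.255 (59.7). Tam_F_ct58_595 held 117 CPM of Igtp, 173 of Irgm2 and 335 of Iigp1, against medians of 27.1, 49.1 and 91.1 CPM in its group. Tam_M_ct34_526 held 104 CPM of Igtp, 114 of Irgm2 and 214 of Iigp1, against medians of 24.7, 40.2 and 80.8. These are 4.31 and 4.21 times the group median for Igtp. In the same libraries Irgm1 stood at 1.88 and 1.9 times its median, and the guanylate-binding proteins stood at 1.27 and 1.69 times (Gbp2), 1.84 and 1.56 times (Gbp3) and 1.63 and 1.2 times (Gbp7). Mx1 at its low level had an SD of 0.643 log2 (97.7 percentile), and Zbp1 0.519 (93.2). Igtp and Irgm2 lie on the same strand of chromosome 11 (58199556 to 58207591 and 58199618 to 58222782) and share 162 exonic bases in the annotation, where counting by gene can split or drop reads.

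**Figure D5:**
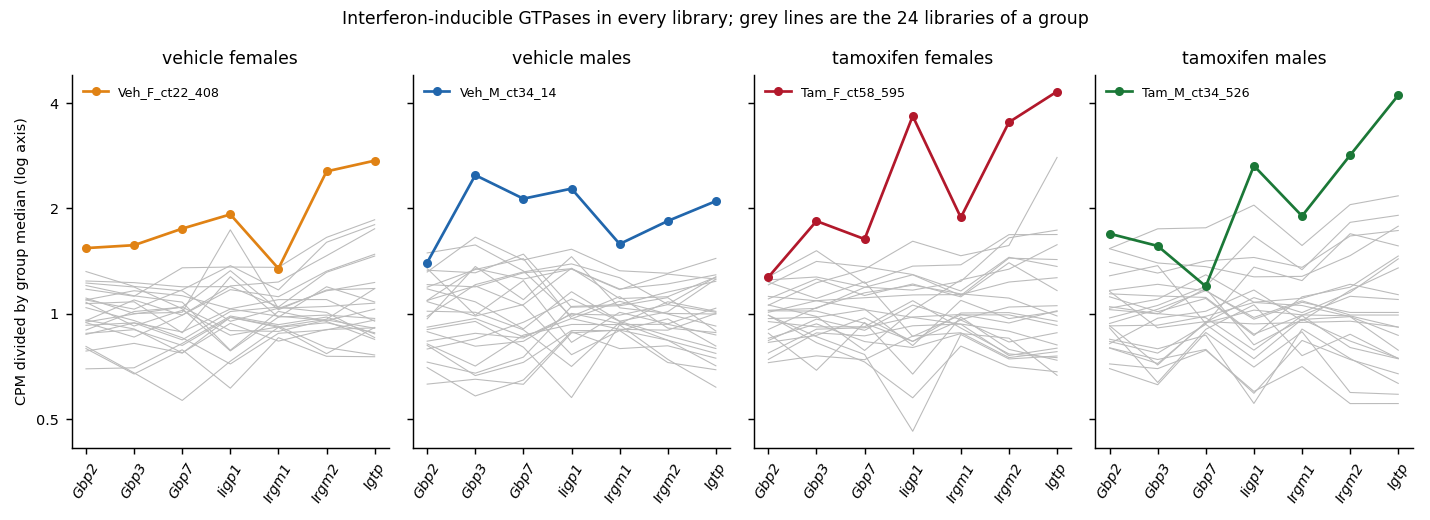
CPM of the 7 interferon-inducible GTPases divided by the median of the group, on a log axis, with a grey line for each of the 24 libraries of a group. Coloured is the library that holds the highest value of its group for the most members. Igtp reaches 4.31 times the median in Tam_F_ct58_595 and 4.21 times in Tam_M_ct34_526.

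In all 4 of these libraries the macrophage and fibroblast sums lay above the group median, the fibroblast sum at ranks 2 to 7 of 24. The cardiomyocyte sum lay below the median in all 4, at ranks 17 to 23 of 24. Tam_F_ct58_595 had the lowest endothelial sum of its group (704 against a median of 912 CPM). Tam_M_ct34_526 had the lowest mural sum (1070 against 1560 CPM). Tam_M_ct34_526 held the highest sums of its group for macrophage markers (group median 349 CPM), T and NK cell markers (6.46 against 2.58), B cell and plasma markers (22.4 against 13), monocyte markers (9.81 against 5.46), dendritic cell markers (4.26 against 1.34) and atrial markers (2470 against 129), and 2 counts of Ifng. Tam_F_ct58_595 ranked 5 of 24 for macrophage markers (372 against 332 CPM) and 23 of 24 for T and NK cell markers (2.08 against 3.03), with 0 counts of Ifng. Veh_F_ct22_408 held the highest T and NK sum of its group (4.30 against 2.74 CPM) and ranked 2 of 24 for macrophage markers (456 against 376). Veh_M_ct34_14 ranked 7 of 24 for macrophage markers and 3 of 24 for neutrophil markers (14.1 against 5.64). Only 1 of the 8 T and NK markers and 2 of the 4 dendritic markers passed the low-count filter. Their sums of a few CPM and the Ifng counts thus lie near the floor. The part of these cells in the GTPase levels was not tested. Without these 4 libraries the calls numbered 11 of 41 between the sexes of tamoxifen hearts (8.12% of all genes), 10 of them among the earlier 11 and without Irf7, and 26 of 41 with tamoxifen in males (69.3% of all genes), 25 of them among the earlier 28.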

How the data were processed

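RNA of mouse ventricles was measured in 96 poly-A selected libraries, grouped by the sex, treatment and time in their labels. The authors deposited raw, unnormalized counts per gene. The submitters' processing notes name HISAT2, Picard, HTSeq and the builds GRCm38 and mm10, and the sources used here give neither versions nor the strand setting. All columns matched a library by title, and 0 were left unmapped. Counts per gene do not separate isoforms or near-identical genes.

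Genes were filtered with filterByExpr (minimum count 10) and scaled by TMM in edgeR 4.0.16 (R 4.3.3, limma 3.58.1, prior count 2). 1 quasi-likelihood model was fitted over the 96 libraries with a mean and a 24 h cosine and sine per group (12 coefficients, 84 residual degrees of freedom), and p-values were adjusted by Benjamini-Hochberg over 15629 genes, with calls at 0.05. It gave 5 comparisons of means and 6 tests of rhythms. Arntl, Xist and Myl7 are CPM of the library total, and other CPM are TMM-scaled. Alternatives included DESeq2 1.42.0, library size alone, and sets of libraries left out. The code was tested on simulated data.

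The members, gene lists and tests were chosen with earlier results of these data known. By rule, all 41 members are accounted for, values over libraries are given for called members of largest change (at most 10 per comparison and direction), and at most 4 called genes of each other list are named. Gene positions are from GENCODE M21.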

Additional observations from a re-analysis of the deposited data

Results flagged for a closer look

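The effect of tamoxifen on the mean level differed between females and males for 23 members by a test of the difference itself, edgeR's interaction of sex and treatment. That is 56.1% of the 41 members, close to the 52.3% of all tested genes, so the count, direction aside, does not set the members apart. The values are the change in females minus the change in males, on the log2 scale. In class I presentation the differences were 0.74 for Psmb9, 0.69 for Psmb8, 0.47 for B2m, 0.46 for H2-D1, 0.45 for H2-K1, 0.34 for Psmb10 and 0.21 for Tap2. Among the antiviral effectors they were 0.88 for Mx1, 0.62 for Ifi27, 0.58 for Isg15, 0.57 for Bst2, 0.52 for Oas1a, 0.49 for Rsad2, 0.41 for Ifit1, 0.37 for Ifit3, 0.34 for Mx2, 0.32 for Trim30a and 0.30 for Xaf1. Among the signalling genes and sensors they were 0.32 for Irf7, 0.28 for Usp18, 0.24 for Ifih1 and 0.22 for Irf9. Ifit1bl1 was the exception at −0.59. Of these 23, Ifi27, Psmb8, Psmb9, Psmb10, Bst2 and Ifit1bl1 were called without the 10 vehicle males high in TEC counts. That is a smaller share of the members than the 28.6% of all genes called there.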

How the results depend on the processing

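No paired analysis was possible because the title numbers differ between the groups and pair no libraries across them. Over 126 results for single members, 2543 of 2938 values kept their direction and their side of the threshold, 385 were no longer called and 10 turned their sign. Without the 10 vehicle males high in TEC counts the members called numbered 4 for tamoxifen in males, 6 for the interaction, 3 for rhythms of vehicle males, 6 for rhythms of tamoxifen females, 2 for rhythms of tamoxifen males, 1 for the difference of rhythms in females (Ifi27) and 1 for that in males. In the same setting Ddx58 (0.055), Stat2 (0.11), Irf9 (0.0051), Oasl2 (0.047), Gbp3 (0.072), Gbp7 (0.068) and Gbp9 (0.0088) changed sign for tamoxifen in males. Isg15 (0.013), Xaf1 (0.074), Trim30a (0.086) and Gbp9 (0.085) did so between the sexes of vehicle hearts, and Irf9 (−0.0072) and Gbp9 (−0.055) in the interaction. The first 24 h alone gave 0 calls for tamoxifen in females, 1 for the sexes of tamoxifen hearts and 14 for the interaction, and the second 24 h alone gave 1, 6 and 13, with 18 for tamoxifen in males and 12 for the sexes of vehicle hearts. A term for the later title numbers gave 1 call for tamoxifen in females, DESeq2 gave 1 for the difference of rhythms in females, and the length and GC offset and the fit without the female-labelled library with no Xist each gave 2 rhythms in tamoxifen males.

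Leaving out 1 time in turn gave 1 to 5 calls for tamoxifen in females, 23 to 31 in males, 16 to 20 between the sexes of vehicle hearts, 6 to 17 between those of tamoxifen hearts and 17 to 28 for the interaction. For rhythms it gave 5 to 10 in vehicle females, 23 to 30 in vehicle males, 2 to 4 in tamoxifen females and 1 to 2 in tamoxifen males (2 without ct 26), and for their differences 0 to 0 in females and 2 to 16 in males. With library size alone the share of all called genes that were higher was 42.8% for tamoxifen in females (55.4% with TMM), 33.6% in males (46%), 66.6% between the sexes of tamoxifen hearts (53.1%) and 61.5% for the interaction (51.5%), and the median of all genes for tamoxifen in males was −0.14 against −0.05 log2. Both settings chosen after seeing the data left out libraries. Without the 4 libraries of most highest values tamoxifen in females had 4 calls. Without the 5 tamoxifen libraries under 6 CPM of Arntl the sexes of tamoxifen hearts had 13 calls and tamoxifen in males 26. The cause of these changes was not tested. Of the members, Mx1 and Zbp1 had the fewest counts per length, which limits their precision.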
